A study of Mus musculus with 6 samples.

Results

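Pim1, Pim2, Cish, Socs1, Socs2 and Socs3 are genes that the transcription factor STAT5 is known to switch on. They were followed here by the level of their transcription starts in libraries of capped RNA 5′ ends (CAGE) from Ba/F3, a mouse line of pro-B cells. The members were chosen by position: for each gene, the deposited peaks on its strand within a fixed mm9 window of 5.5 to 16 kb were summed in every library. This took 93 of the 158966 peaks, of which 70 held at least 1 tag. The peaks carry no gene names, so the names rest on these windows. Peaks are called promoters or starts below, but whether each one, above all inside a gene, begins a transcript was not tested. The cells of the first group express the receptor tyrosine kinase FLT3 with 2 kinds of mutation, an internal tandem duplication (ITD) and the activation-loop substitution D835Y, and are called the double mutant (n = 3). Cells of the second group express FLT3-ITD without that substitution (n = 3). Per the labels, all cells were grown in RPMI-1640 with serum and antibiotics, and the listed medium names no cytokine. The labels used here do not say how the FLT3 constructs were introduced, whether a line is 1 clone, or whether replicates are separate cultures. The p-values therefore rest on the spread between libraries, which may be technical. Libraries held 5884258 to 13977941 tags over the peaks, and FLT3-ITD replicate 2 held the fewest.

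FLT3 with an internal tandem duplication signals without its ligand, and STAT5 is a well-known target of that signal. Activated STAT5 binds DNA as a dimer and raises transcription of genes that act at opposite ends of the pathway. Pim1 and Pim2 encode serine/threonine kinases that are active once made and promote survival and growth. Cish, Socs1, Socs2 and Socs3 encode SH2-domain proteins that dampen cytokine signalling, so that the pathway induces its own inhibitors.

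In the double mutant 5 of the 6 genes were higher than in FLT3-ITD cells, and Socs2 was not called. Per tag sequenced, the pooled libraries of the double mutant held 4.05 times the Socs1 tags of the pooled FLT3-ITD libraries (exact 95% interval 3.62 to 4.54) and 3.37 times the Pim2 tags (3.0 to 3.80). The ratio was 1.98 for Socs3, 1.95 for Pim1 (1.85 to 2.06) and 1.77 for Cish (1.69 to 1.85), against 0.951 for Socs2 (0.872 to 1.04). These intervals cover counting error only. Levels below are in CPM, tags scaled to the same total in each library. A CAGE tag marks 1 capped 5′ end whatever the transcript's length, so levels were set side by side between genes without a length correction. Differences are those of log2(CPM + 1), double mutant minus FLT3-ITD, tested with limma in 1 fit over the 6 sums and all other tested promoters, with a threshold of 0.05 for the Benjamini-Hochberg adjusted p. Of the 19149 sums and promoters in that fit, 14% were called higher in the double mutant, and in 24.1% all double-mutant libraries lay above all FLT3-ITD libraries. The median difference of the 6 genes was 0.92, beside 0.05 over all of them. In bulk RNA, a change in the share of cells that use a promoter and a change per cell cannot be told apart.

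**Figure D1:**
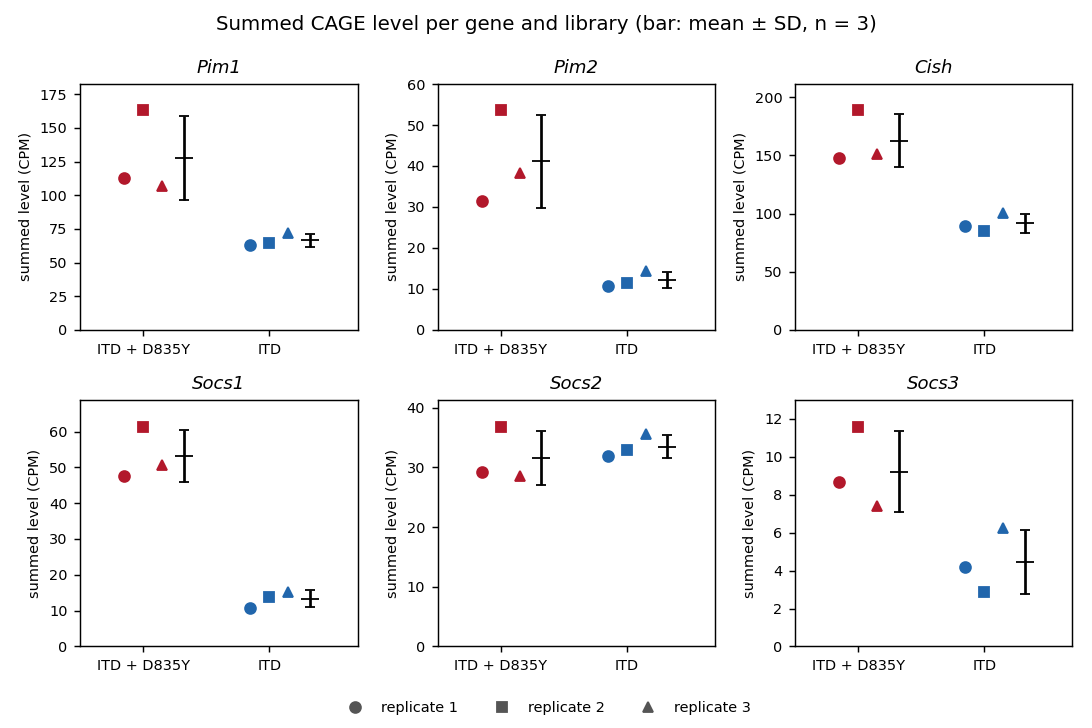
Summed CAGE level in CPM of each gene in the 3 libraries of the double mutant (red, left) and the 3 of FLT3-ITD (blue, right), with the mean and SD as bars and a separate linear axis from 0 for each gene. The groups stand apart for Pim1, Pim2, Cish, Socs1 and Socs3 and overlap for Socs2, and double-mutant replicate 2 is the highest of its group in all 6 plots.

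Promoter sequences from RefSeq were available for 5 of the genes (Pim1, Pim2, Cish, Socs1 and Socs3), as 300 bases from 250 before to 50 after the annotated start, in GRCm38.p6. The deposited peaks follow mm9, so these windows were not lined up with peaks. They were searched for TTCNNNGAA, the palindrome that STAT dimers bind, which reads alike on both strands, and for TTCNNNNGAA, its longer form. Of 32851 promoters of that length, 8.30% held the first and 6.95% the second. Cish and Socs3 held the first and are shown with each match in capitals. Socs1 is shown beside them because its level differed most.

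Cish: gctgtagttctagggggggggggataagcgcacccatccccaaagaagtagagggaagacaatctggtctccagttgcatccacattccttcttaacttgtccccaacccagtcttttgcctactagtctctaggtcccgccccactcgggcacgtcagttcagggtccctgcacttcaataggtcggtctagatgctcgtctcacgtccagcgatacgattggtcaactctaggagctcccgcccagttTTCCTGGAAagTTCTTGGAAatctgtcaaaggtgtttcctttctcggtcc
Socs3: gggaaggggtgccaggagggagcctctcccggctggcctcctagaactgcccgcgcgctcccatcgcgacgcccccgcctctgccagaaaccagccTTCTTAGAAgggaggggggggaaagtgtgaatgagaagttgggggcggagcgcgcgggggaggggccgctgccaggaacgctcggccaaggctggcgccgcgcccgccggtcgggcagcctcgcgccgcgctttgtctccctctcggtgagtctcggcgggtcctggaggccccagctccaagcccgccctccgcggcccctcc
Socs1: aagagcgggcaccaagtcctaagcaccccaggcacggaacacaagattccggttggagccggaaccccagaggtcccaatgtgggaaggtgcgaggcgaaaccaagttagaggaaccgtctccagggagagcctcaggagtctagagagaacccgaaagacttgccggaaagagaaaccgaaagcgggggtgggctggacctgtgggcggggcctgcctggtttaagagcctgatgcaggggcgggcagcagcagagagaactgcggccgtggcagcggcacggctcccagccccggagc

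These lie at chr9:107296409-107296708 (Cish, plus strand), chr11:117969317-117969616 (Socs3, minus strand) and chr16:10785487-10785786 (Socs1, minus strand), each printed 5′ to 3′ on the gene's strand. Cish held 2 matches, TTCCTGGAA from base 251, where the annotated start lies, and TTCTTGGAA from base 262, counted from 1 at the 5′ end. At least 2 matches were found in 0.457% of all promoters. Socs3 held TTCTTAGAA from base 97. Neither form was found in these windows of Socs1 and Pim2 or in both that RefSeq lists for Pim1, which says only that these letters are not there. GC content was 53.3% for Cish, 63.3% for Socs1, 73.3% for Socs3, 62.7% for Pim2 and 81.3% and 49.0% for the upstream and downstream windows of Pim1, beside a median of 52.7% over all promoters.

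Both Pim kinases were higher in the double mutant. Summed over its window on the plus strand of chromosome 17, Pim1 had 112.7, 163.3 and 106.6 CPM in double-mutant libraries, against 62.7, 64.7 and 71.9 CPM in FLT3-ITD libraries. The lowest double-mutant library stood above every FLT3-ITD library. The means were 128 ± 31.1 and 66.4 ± 4.81 CPM (SD, n = 3 each), a log2 difference of 0.91 (SE 0.15, limma adjusted p = 0.000933). Without double-mutant replicate 2, the highest library, the difference was 0.72.

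Pim2, on the plus strand of the X chromosome, had 31.5, 53.7 and 38.3 CPM in double-mutant libraries, against 10.8, 11.4 and 14.5 CPM in FLT3-ITD libraries. The groups did not overlap, and even the lowest double-mutant library held more than double the highest FLT3-ITD one. The log2 difference was 1.65 (SE 0.18, limma adjusted p = 5.74e-05), and 1.44 without double-mutant replicate 2. Of all sums and promoters in the fit, 0.930% had a higher difference than Pim2, and 4.20% had a higher one than Pim1. Adding 1 CPM shrinks log2 differences more at low levels. The tested promoters had a median of 5.83 CPM, below both genes, so these shares depend in part on level.

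Cish, which binds activated receptors and competes with STAT5 there, was the most active of the 6 genes in every library. On the plus strand of chromosome 9 it had 147.4, 189.0 and 151.6 CPM in double-mutant libraries, against 89.6, 85.0 and 100.9 CPM in FLT3-ITD libraries. The 2 groups did not overlap. The means of 163 ± 22.9 and 91.8 ± 8.19 CPM (SD, n = 3 each) gave a log2 difference of 0.81 (SE 0.12, limma adjusted p = 0.000459).

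Socs1, an inhibitor of JAK kinases, differed most of the 6. Its sum on the minus strand of chromosome 16 was 47.6, 61.4 and 50.7 CPM in double-mutant libraries, against 10.7, 13.9 and 15.3 CPM in FLT3-ITD libraries. Every double-mutant library held over 3 times the highest FLT3-ITD level. The means were 53.2 ± 7.24 and 13.3 ± 2.33 CPM (SD, n = 3 each), a log2 difference of 1.93 (SE 0.15, limma adjusted p = 1.75e-06). Of all sums and promoters in the fit, 0.616% had a higher difference, with the same limit as for Pim2.

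Socs3, which also inhibits JAK kinases, was the least active. On the minus strand of chromosome 11 it had 8.64, 11.6 and 7.42 CPM in double-mutant libraries, against 4.19, 2.89 and 6.23 CPM in FLT3-ITD libraries. The groups stood apart by a narrow margin, between 7.42 and 6.23 CPM. The level rested on 340 tags in all double-mutant libraries and 131 in all FLT3-ITD libraries, a ratio of 1.98 per tag sequenced with an exact 95% interval of 1.62 to 2.45. The log2 difference was 0.94 (SE 0.23, limma adjusted p = 0.0107). Without FLT3-ITD replicate 2, the lowest and shallowest library, it was 0.72 and no longer passed (limma adjusted p = 0.0521).

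Socs2, a feedback inhibitor best known for limiting growth hormone signalling, was not called. Its sum on the minus strand of chromosome 10 was 29.3, 36.8 and 28.6 CPM in double-mutant libraries, against 31.9, 33.0 and 35.6 CPM in FLT3-ITD libraries. Double-mutant replicates 1 and 3 lay below all FLT3-ITD libraries and replicate 2 above them. The log2 difference was -0.09 with a 95% interval of -0.37 to 0.19 (SE 0.13, limma adjusted p = 0.651). The upper end of that interval lies below the lower ends for the other 5 genes, which ran from 0.44 for Socs3 to 1.60 for Socs1.

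**Figure D2:**
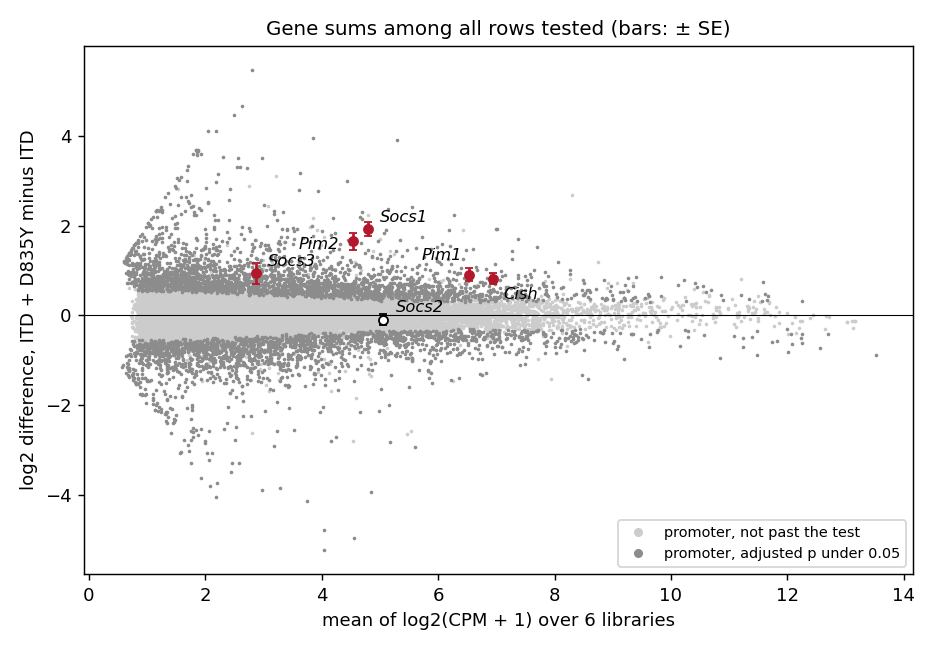
Log2 difference (double mutant minus FLT3-ITD, vertical axis) against the mean of log2(CPM + 1) over the 6 libraries (horizontal axis) for 19149 rows, the 6 gene sums and all other tested promoters, with bars of 1 SE on the gene sums. Pim1, Pim2, Cish, Socs1 and Socs3 (red) lie above the bulk of promoters, whose median difference was 0.05, and Socs2 (open) lies within it.

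Whether the genes differed by unequal amounts was asked of the ratio between genes within each library, for all 15 pairs. The ratio separated the groups in 10 pairs, each with an exact two-sided permutation p of 0.10, the smallest that 3 libraries against 3 can give (0.15 after adjustment over the 15). All 5 pairs with Socs2 were among them. With so few libraries no pair could pass the threshold set above, so the permutation test cannot decide whether the amounts were unequal. Pairs that share a gene are not independent. How often ratios of other promoters separate the groups was not counted, so there is no background for the 10 pairs. The ratios below therefore describe these libraries only. The level of Socs1 was 1.62, 1.67 and 1.78 times that of Socs2 in double-mutant libraries, against 0.336, 0.423 and 0.429 times in FLT3-ITD libraries. Socs1 and Pim2 each separated the groups against Pim1 and against Cish, and Socs1 did so against Socs3. The level of Pim2 was 0.280, 0.329 and 0.359 times that of Pim1 in double-mutant libraries, against 0.173, 0.176 and 0.201 times in FLT3-ITD libraries. The ratios overlapped for Pim1 with Cish, for Socs3 with Pim1, with Cish and with Pim2, and for Socs1 with Pim2 (exact permutation p from 0.20 to 0.70).

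The order of the genes also differed between the groups. In all double-mutant libraries it ran Cish, Pim1, Socs1, Pim2, Socs2, Socs3 from high to low. In all FLT3-ITD libraries Cish and Pim1 again came first, Socs2 came next and Socs3 last, while Socs1 and Pim2 lay between those 2 and exchanged places from library to library. Within the double mutant, the ranges over libraries of Cish with Pim1, of Socs1 with Pim2 and of Pim2 with Socs2 overlapped. Within FLT3-ITD cells, those of Socs1 with Pim2 did.

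In each group 1 library was the highest for all 6 genes. Double-mutant replicate 2 was the highest of its group for 6 of 6 genes and FLT3-ITD replicate 3 was the highest of its group for 6 of 6. Among all sums and promoters in the fit, those libraries were the highest of their group in 46.9% and 39.3%. Without double-mutant replicate 2, the differences were 1.82 for Socs1, 0.70 for Cish, 0.77 for Socs3 and -0.20 for Socs2, with the calls as before.

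Each gene was read mostly from 1 promoter. The main promoter, the peak with the highest mean over the libraries, held 97.3 ± 1.53% of the Pim2 tags in the double mutant and 97.6 ± 0.592% in FLT3-ITD cells. It held 92.1 to 94.0% of the tags of Cish, 84.8 to 91.8% of those of Socs2 and 91.3 to 96.3% of those of Socs3 over the 6 libraries. Its share was lower for Pim1, at 68.4 to 75.2%, and for Socs1, at 56.3 to 71.8%. All 5 main promoters other than that of Socs2 were called higher when promoters were tested singly (limma adjusted p from 9.94e-06 for Socs1 to 0.0124 for Socs3). Main promoters of Pim1, Pim2, Socs1 and Socs3 were 17 to 19 bases wide and those of Cish and Socs2 58 and 55 bases, beside a median of 35 bases over the tested promoters.

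Of the 93 peaks, 19 reached 1 CPM in at least 3 libraries and were tested singly among 19162 promoters, of which 14.1% were called higher and 10.4% lower. That excess of higher calls, 2695 against 1985, was not there with TMM scaling (2451 higher, 2456 lower), edgeR (2363 and 2346) or DESeq2 (1702 and 1836). Of these 19, 11 were called higher, 0 lower and 8 were not called. Promoters of 1 gene are not independent: Pim1 gave 9 of the 19 and 5 of the 11 calls, and Socs1 gave 3 and 3. Calls at low promoters of these 2 genes were lost in 6 or 8 of 12 alternative fits, as given below. The groups stood apart with the double mutant higher at 14 of the 19, beside 24.2% of all tested promoters. The filter bears on this count, since all 19 reached 1 CPM in every double-mutant library but only 13 did so in all 6 libraries. Of those 13, 8 were called. The share called among all promoters at 1 CPM in all 6 libraries was not counted. The 14.1% holds for another filter, so it is no measure for these 13. The other 74 peaks stayed at or below 1.86 CPM and entered the sums only, and 23 of them held no tag.

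**Figure D3:**
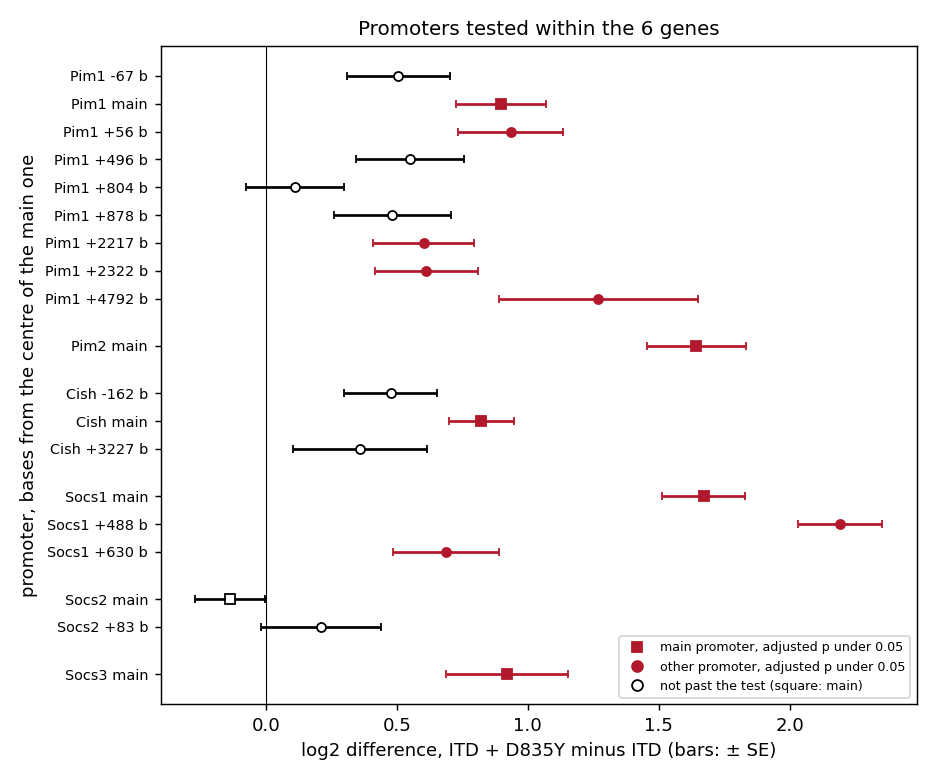
Log2 difference (double mutant minus FLT3-ITD, with bars of 1 SE) of the 19 tested promoters on the genes' own strands, ordered within each gene by distance in bases from the centre of the main promoter. Filled red marks have a limma adjusted p under 0.05, squares are main promoters, and all marks but that of the main Socs2 promoter lie to the right of 0.

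Among these genes, only Socs1 had a main-promoter share that separated the groups. Its main promoter (10785618 to 10785636) had 26.8, 37.6 and 30.8 CPM in double-mutant libraries, against 7.70, 9.52 and 10.5 CPM in FLT3-ITD libraries. A second promoter, centred 488 bases downstream (10785128 to 10785150) had 17.5, 19.5 and 16.2 CPM in double-mutant libraries, against 2.54, 3.23 and 3.60 CPM in FLT3-ITD libraries. Both separated the groups. The log2 difference was 1.67 (SE 0.16) for the main promoter and 2.19 (SE 0.16, limma adjusted p = 1.02e-06) for the second. The main promoter held 59.5 ± 2.78% of the gene's tags in the double mutant and 69.7 ± 1.87% in FLT3-ITD cells, and the second 33.5 ± 2.87% and 23.5 ± 0.250% (SD, n = 3 each). Both shares separated the groups, each with an exact two-sided permutation p of 0.10, the smallest possible. They are parts of the same sum, so a fall in the main share and a rise in the second are not separate observations. How often such shares separate the groups in other genes was not counted. For Cish, Pim1, Pim2, Socs2 and Socs3 the share of the main promoter overlapped between the groups. The ratio of the neighbouring Pim1 promoter, described next, to the main one was 0.141, 0.147 and 0.130 in double-mutant libraries, against 0.130, 0.125 and 0.128 in FLT3-ITD libraries. These ratios also separated the groups, narrowly (exact two-sided permutation p of 0.10).

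Pim1 had the most tested promoters, 9. The main one (29627791 to 29627807) and its neighbour 41 bases further on (29627849 to 29627860) together held 90.8, 140.9 and 82.4 CPM in double-mutant libraries, against 50.1, 53.5 and 57.1 CPM in FLT3-ITD libraries. The 14 peaks beyond them, inside or past the gene's start region, held 18.8, 17.9 and 21.1 CPM in double-mutant libraries, against 11.2, 10.0 and 12.5 CPM in FLT3-ITD libraries. Both sets separated the groups, and the downstream peaks made up 15.8% of the sum in the double mutant and 16.9% in FLT3-ITD cells. They varied among themselves. Of the 6 that were tested, the promoter at 29628587 to 29628618 differed least and averaged 2.84 ± 0.359 CPM in the double mutant and 2.57 ± 0.523 CPM in FLT3-ITD cells, a log2 difference of 0.11 with a 95% interval of -0.29 to 0.52. RefSeq lists 2 starts for Pim1 that lie 2300 bases apart in GRCm38.p6. That build was not lined up with the peaks, so a match between the starts and peaks was not tested. Promoters were seen 2217 and 2322 bases beyond the centre of the main one. Both were called (limma adjusted p = 0.0368 and 0.0383), as was one 4792 bases beyond it (adjusted p = 0.0417), but each of these 3 calls was lost in 8 of 12 alternative fits.

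The weaker upstream promoter of Cish (107199013 to 107199068) lies 105 bases before the main one (107199174 to 107199231). It had 6.29, 9.01 and 6.62 CPM in double-mutant libraries, against 5.66, 4.59 and 4.56 CPM in FLT3-ITD libraries. The groups did not overlap, but the log2 difference of 0.48 was not called (SE 0.18, limma adjusted p = 0.0654). The second promoter of Socs2 (94879350 to 94879366) had 1.93, 4.22 and 3.26 CPM in double-mutant libraries, against 3.22, 2.04 and 2.28 CPM in FLT3-ITD libraries, and the groups overlapped.

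Each gene was also set beside the tested promoters outside its window and within 500 kb of it. Promoters inside the window were left out on both strands, among them the 2 tested ones opposite to Cish that are described below. Over all tested promoters, 14.1% were called higher and 10.4% lower. Around Socs1, 0 of 15 neighbours were called in either direction (limma on single promoters), and their differences ran from -0.25 to 0.43, below that of Socs1. Around Socs3, 1 of 18 was higher and 1 lower, with differences from -1.38 to 0.68, and none was as high as that of the gene. Around Pim2, 7 of 44 were higher and 1 lower, with a median of 0.25 and none above Pim2. For Cish, 2 of 30 were higher and 9 lower, with a median of -0.14. Around Pim1, 9 of 22 were higher, 0 lower and 13 not called, with a median of 0.30, a lowest difference of -0.50 and 4 above Pim1. Around Socs2, 3 of 10 were lower and 0 higher, with a median of -0.25, and 3 had a higher difference than Socs2. The part of the surrounding promoters in the differences of the genes was not tested.

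**Figure D4:**
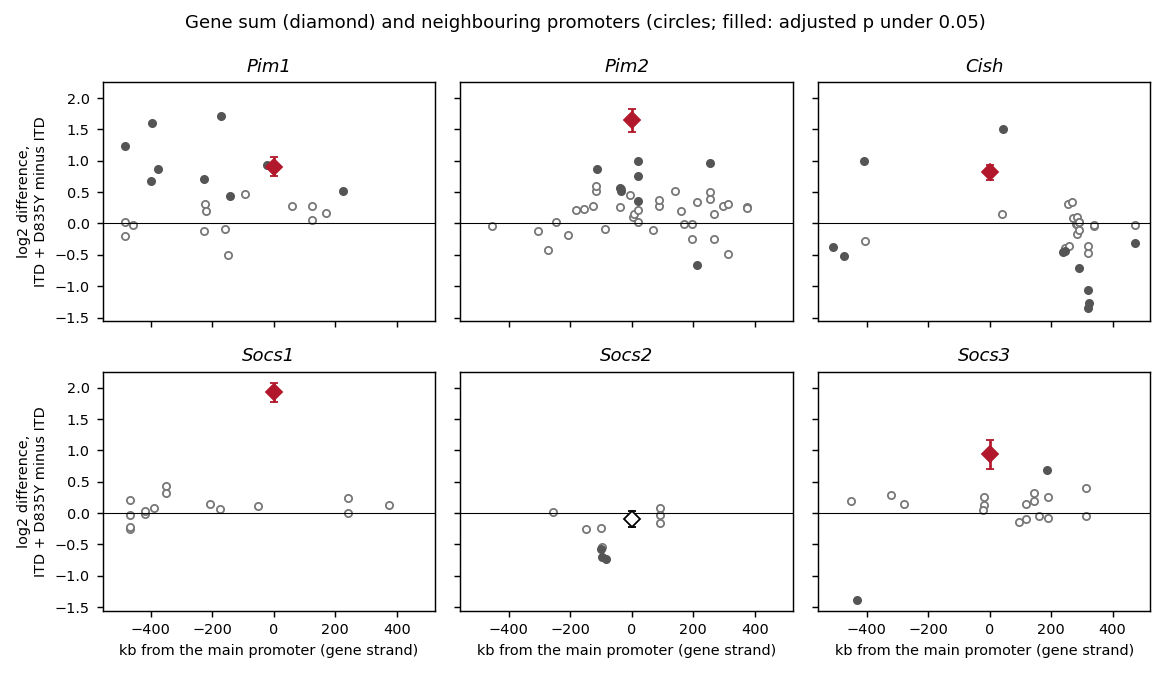
Log2 difference (double mutant minus FLT3-ITD, vertical axis) of each gene sum (diamond, with a bar of 1 SE) and of its neighbours (circles), by distance in kb from the main promoter in the direction of the gene. Neighbours are the tested promoters outside the gene's window and within 500 kb of it, filled where the limma adjusted p was under 0.05. Socs1, Socs3 and Pim2 lie above all their neighbours. Cish (2 of 30 neighbours above it), Pim1 (4 of 22) and Socs2 (3 of 10) lie within the range of theirs.

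For each gene, the promoter elsewhere whose 6 values were most alike was sought among 10240 with a mean of at least 5 CPM. Likeness was the root mean square difference of log2(CPM + 1), each centred on its mean over the 6 libraries. The closest to Pim1 was on the plus strand of chromosome 7 at 148578115 to 148578126 (0.042), and the closest to Pim2 on the plus strand of chromosome 3 at 51028709 to 51028729 (0.12). The closest to Cish and to Socs3 were both on the minus strand of chromosome 8, at 125100730 to 125100792 (0.046) and at 125075216 to 125075233 (0.10). For Socs1 it was on the plus strand of chromosome 14 at 21895391 to 21895444 (0.13) and for Socs2 on the minus strand of chromosome 7 at 26539648 to 26539659 (0.030). Among the 6 genes themselves, Pim1 and Cish were the closest pair (0.10) and Socs1 and Socs2 the farthest (1.01).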

How the data were processed

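CAGE libraries were made from total RNA by the no-amplification non-tagging method, per the labels' protocols. The deposited values are CPM scaled by the authors over the peaks of each library, and each table sums to 1000000. TopHat2 2.0.14, edgeR 3.24.3 and the builds hg19 and mm9 are named in the submitters' processing notes with no role. The sources used here do not give how peaks were called or whether starts count from 0 or 1. Values in every library were whole multiples of 1 tag (tolerance 0.01), worth 0.0715 to 0.170 CPM, so tags were recovered. This is less certain for double-mutant replicate 3, whose step of 0.0989 CPM lies close to a plain decimal step; tag ratios, edgeR and DESeq2 rest on the recovered tags, and limma does not.

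Promoters with 1 CPM in at least 3 libraries were tested with limma 3.58.1 (trend, robust) in R 4.3.3 on log2(CPM + 1), group as the only term, two-sided, Benjamini-Hochberg adjusted. For gene sums, the windows' peaks were replaced by the 6 sums. The fit was run on simulated tags with the same spread set for all promoters, which does not show how it behaves at the spreads seen here. Alternatives were TMM scaling, a pseudocount of 0.5, no filter, a mean of at least 5 CPM, edgeR 4.0.16 and DESeq2 1.42.0 on recovered tags, a term for the replicate number, leaving out each library, and summing tested peaks only. Named items were the 6 genes, their tested promoters and the most alike promoter elsewhere. Members and lists were chosen with earlier results of these data known. With no annotation of mm9, the planned lists of other pathway genes and cell type markers, and the FLT3 constructs, were not analysed here.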

Additional observations from a re-analysis of the deposited data

How the results depend on the processing

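For the 6 gene sums and their main promoters, 160 of 162 refits left direction and call as they were. The other 2 concern Socs3, whose call was lost without FLT3-ITD replicate 2. The refits are not separate checks, since they reuse the same libraries and each main promoter is part of its gene's sum. For Socs2, an unchanged call means that it stayed not called. With single libraries left out, the log2 difference of Socs3 ran from 0.72 to 1.16 for the sum and from 0.70 to 1.15 for the main promoter, and the cause was not tested. Over all refits, the sums ran from 0.72 to 1.02 for Pim1, 1.44 to 1.82 for Pim2, 0.70 to 0.88 for Cish, 1.79 to 2.03 for Socs1 and -0.20 to -0.03 for Socs2 (adjusted p from 0.164 to 0.921). The number of promoters changed over the whole series was 4680. It was 2916 among those with a mean of at least 5 CPM, where fewer were tested, and 3076 to 5209 with single libraries left out. With the replicate number as a block (replicate block) 4109 changed, and every sum kept its call. Nothing shows that equal numbers pair libraries: the deviations of libraries with equal numbers from their group means had correlations of -0.01, 0.02 and 0.19. Low peaks are limited by depth, since 0 tags in a library allows up to 0.215 to 0.510 CPM (3 tags).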

Other observations

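The windows also held 24 peaks on the strand opposite to the genes, 18 of them with a tag, and 2 were tested, both at Cish. A minus-strand promoter at 107198802 to 107198838, 335 bases before the main Cish promoter and pointing away from it, had 1.34, 1.72 and 2.57 CPM in double-mutant libraries, against 0.488, 0.340 and 1.32 CPM in FLT3-ITD libraries. The groups stood apart by a narrow margin, and the log2 difference of 0.77 was called (SE 0.24, limma adjusted p = 0.0345), but the call was lost in 5 of 12 alternative fits. A minus-strand promoter further upstream, at 107192037 to 107192117, had 40.6, 38.6 and 36.3 CPM in double-mutant libraries, against 37.1, 32.3 and 37.0 CPM in FLT3-ITD libraries. These groups overlapped, and the log2 difference was 0.12 with a 95% interval of -0.13 to 0.37 (limma adjusted p = 0.502). Which genes these starts belong to was not analysed here. A minor Socs1 promoter at 10784990 to 10785005 had 1.17, 1.29 and 1.09 CPM in double-mutant libraries, against 0.0975, 0.680 and 0.351 CPM in FLT3-ITD libraries. It passed the filter on low values through the double mutant alone, and its call (limma adjusted p = 0.0254) was lost in 6 of 12 alternative fits.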
